A study of Solanum lycopersicum with 24 samples.

Results

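Chalcone isomerase (CHI) closes the central ring of a chalcone to give a flavanone, the entry point to flavonols, other flavonoids and anthocyanins. Chalcone synthase (CHS) makes the chalcone. Chalcone isomerase-like proteins (CHIL) share the fold of the enzyme but lack its activity, and in several plants they are known to help CHS make the correct chalcone. In tomato, the glandular cells of type VI trichomes, hairs of the leaf surface that store terpenes, also store flavonols.

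The loci described here are CHI1 (Solyc05g010320), the next lower locus number in the tables, Solyc05g010310, and CHIL (Solyc05g052240). They were taken by locus number, and all 3 of them were present among the 34725 gene models of the count tables. That CHI1 is the gene that af plants lack in working form comes from general knowledge and not from the labels. The labels describe 3 genotypes, the af mutant and its complemented lines #4 (here CHI4) and #9 (here CHI9). The lines are themselves in the af background, and neither the introduced construct and its promoter nor a wild type is described in the labels. RNA came from glandular cells of type VI leaf trichomes of plants grown in soil in a chamber for 5 weeks at 28 °C and 250 µE. Each genotype was collected at 4 sampling times, numbered 1 to 4 and shared by the genotypes. This gave 12 libraries, which were sequenced on 2 lanes each. The replicate number is the sampling time. The series describes the collections as independent, and how many plants entered a library is not stated.

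Libraries held 8.99 M to 70.9 M counts, with CHI9 replicate 2 the shallowest. All 4 type VI gland markers had reads in both af and the lines, but their summed level was 3848 to 5131 CPM (counts per M counts of the library, scaled as described for CHI1) in af and 18915 to 25602 CPM in the lines. The terpene genes NDPS1, TPS19/20 and TPS12 fell in af, and the regulator MYC1 had a log2 difference of -0.013. Loci taken as markers of other cells had reads too. Whether gland cells express these loci themselves was not tested. The summed level of 3 Rubisco small subunit loci, taken as markers of green leaf cells, was 227 to 306 CPM in af and 334 to 422 CPM in the lines, and 1 of the 3 fell in af. The summed level of 4 acylsugar loci, taken as markers of the tip cells of other trichomes, was 31.4 to 48.3 CPM in af and 71.6 to 130.5 CPM in the lines, and 2 of the 3 that were tested fell in af. Against the lines, 13.6% of the 18326 tested genes fell in af. The part of all these markers' cells in the results on CHI1 and CHIL was not tested. In such bulk samples, fewer cells of a type and less RNA per cell cannot be told apart.

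CHI1 was read in every library, af included, and its level in af lay below that of both lines. In af it was 211 CPM at sampling time 1, 252 at time 2, 339.9 at time 3 and 239 at time 4. In CHI4 it was 418, 1168, 726 and 1014 CPM at the same times. In CHI9 it was 529.9, 701, 718 and 791 CPM. No af library reached the lowest line library, CHI4 at sampling time 1. Such a gap below the lines was found in 8.68% of the 18326 tested genes. Levels are scaled by the trimmed mean of M values (TMM), and a count of CHI1 can come from the native gene or from the introduced copy, which these tables do not separate.

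Over the 4 sampling times CHI1 averaged 260.5 CPM in af, with an SD of 55.8 CPM. The average of CHI4 was 831 CPM (SD 331) and that of CHI9 was 685 CPM (SD 110.4), each again from 4 libraries. CHI1 fell by 1.53 on the log2 scale in af against the mean of the lines (SE 0.229, edgeR adjusted p = 7.76e-05), a 2.90-fold difference. Of all tested genes 13.6% fell in this comparison. Against CHI4 alone CHI1 fell by 1.67 (SE 0.252, edgeR adjusted p = 0.000114), with 11.2% of tested genes lower. Against CHI9 alone it fell by 1.39 (SE 0.250, edgeR adjusted p = 0.000666), with 11.6% lower. These last comparisons share the af libraries.

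Within each sampling time the af library was below both line libraries, a pattern that 14.9% of tested genes showed. The af library held 44.4% of the mean of the lines at time 1, 27.0% at time 2, 47.1% at time 3 and 26.5% at time 4. The smaller percentages fell at times 2 and 4, when CHI4 was highest. Since CHI4 is part of the mean of the lines, a high CHI4 value by itself lowers the percentage. A test of whether the af difference itself changed between sampling times 1 and 2 and sampling times 3 and 4 gave 0.11 on the log2 scale for CHI1 (SE 0.457, edgeR adjusted p = 1.00). The sign of this value changed in 5 of the 12 runs that each left out a library, from -0.35 to 0.39. In that test edgeR called 0 of 18326 genes (0.0%), while 505 genes had an edgeR p under 0.05 before adjustment and DESeq2 called 1. With 2 libraries in each combination of genotype and period, its standard error leaves room for sizeable changes.

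**Figure D1:**
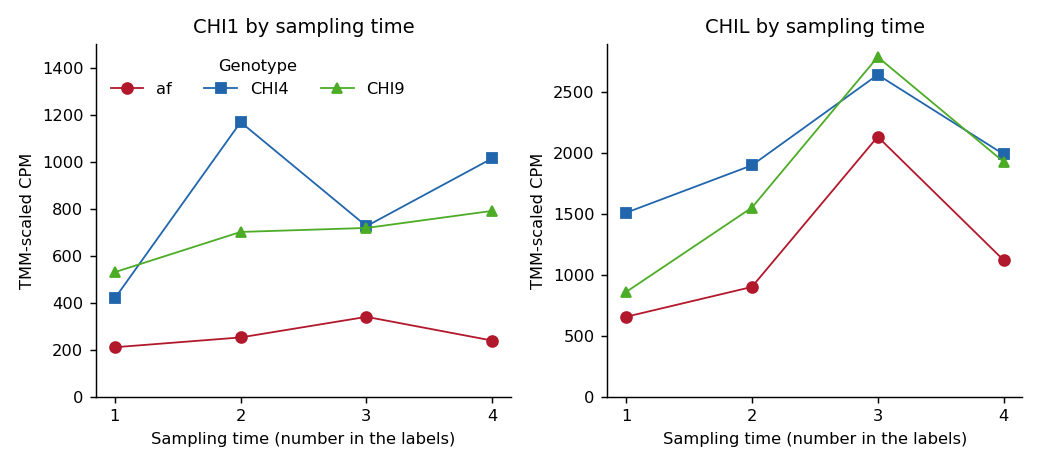
TMM-scaled level of CHI1 (left) and CHIL (right), in CPM, at the 4 sampling times, with 1 point for each library and a line for each genotype. CHI1 stayed at 211 to 339.9 CPM in af and at 418 to 1168 CPM in the lines, while CHIL peaked at sampling time 3 in all 3 genotypes.

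Between the lines, neither gene passed the test. CHI1 was lower in CHI9 than in CHI4 by a log2 difference of -0.28 (SE 0.246, edgeR adjusted p = 0.926) and CHIL by -0.17 (SE 0.376, edgeR adjusted p = 0.976). In this comparison 0.0928% of tested genes were called, 17 in all. The lines did not keep an order for CHI1. CHI9 minus CHI4 was 0.34 at time 1, -0.74 at time 2, -0.02 at time 3 and -0.36 at time 4 (log2). The coefficient of variation of CHI1 was 39.8% in CHI4, 16.1% in CHI9 and 21.4% in af. For CHIL the lines were the other way round, at 23.4% in CHI4 and 45.1% in CHI9, with 53.9% in af.

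CHIL followed the sampling time in each genotype, and the genotypes overlapped. In af it was 657 CPM at time 1, 902 at time 2, 2136 at time 3 and 1123 at time 4. In CHI4 it was 1511, 1901, 2644 and 1992 CPM. In CHI9 it was 860.0, 1553, 2790.5 and 1930.0 CPM. Time 3 gave the highest and time 1 the lowest value in every genotype. Of tested genes 4.51% had their highest value at time 3 in all genotypes, and 2.84% their lowest at time 1. From time 1 to time 3 CHIL was 3.25-fold higher in af, 1.75-fold higher in CHI4 and 3.24-fold higher in CHI9, each from 1 library per time.

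In a fit with genotype and sampling time as additive terms, CHIL differed among the 4 sampling times (edgeR adjusted p = 0.000761), and 1.93% of tested genes did. It rose by 0.82 on the log2 scale from sampling times 1 and 2 to sampling times 3 and 4 (SE 0.121, edgeR adjusted p = 0.00606), a 1.76-fold difference, with 0.649% of tested genes called higher. Each sampling time was a single collection, and in this fit the genotypes served as its replicates. The SE and p of the later against the earlier times therefore do not measure the spread between collections. For CHI1 the adjusted p among the 4 times was 0.175 in edgeR, and it was 0.0291 with DESeq2 and 0.000746 without the low-count filter. Its log2 difference between the later and the earlier pair of times was 0.29 (SE 0.145, edgeR adjusted p = 0.382). CHI1 also had its lowest value at time 1 in all genotypes, but its highest at time 3 in af, time 2 in CHI4 and time 4 in CHI9.

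The balance between genotype and time was opposite in the pair, as a description. Genotype took 77.7% of the sum of squares of log2 CPM of CHI1 over the 12 libraries, sampling time 13.4% and the remainder 8.95%. For CHIL, genotype took 30.9%, sampling time 61.7% and the remainder 7.40%. The median over tested genes was 32.6% for genotype and 23.5% for time. A lower genotype share than that of CHI1 was found in 91.7% of tested genes, and a lower time share than that of CHIL in 94.7%.

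The fitted level of CHIL was lower in af with and without sampling time in the fit. Whether it passed depended on that term, and the size also depended on the scaling. Sampling time pairs the libraries, and a fit without it counts differences between times as error. CHIL averaged 1204 CPM in af, with an SD of 649.5 CPM over 4 libraries. It averaged 2012 CPM (SD 470.2) in CHI4 and 1783 CPM (SD 804) in CHI9. Without the sampling time, the log2 difference of af from the lines was -0.65 (SE 0.334, edgeR adjusted p = 0.175). Leaving out af replicate 3, the library of the highest af value, gave -1.08 (edgeR adjusted p = 0.0161). That run held no af library at time 3, when CHIL was highest in every genotype, so its value mixes genotype with sampling time. With the sampling time as a block, CHIL fell by 0.72 in af (SE 0.132, edgeR adjusted p = 0.000226), where 15.9% of tested genes fell. With the block CHIL also fell by 0.86 against CHI4 (edgeR adjusted p = 0.000166) and by 0.59 against CHI9 (edgeR adjusted p = 0.00546), where 13.6% and 13.8% of tested genes fell. Without it these edgeR adjusted p-values were 0.199 and 0.330. The af library was below both lines at 4 of 4 sampling times on the TMM scale, as it was for 14.9% of tested genes.

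Within-time values carry the same dependence on scaling. On the TMM scale, af held 55.4% of the mean CHIL level of the lines at time 1, 52.2% at time 2, 78.6% at time 3 and 57.3% at time 4. With library totals alone, af was below both lines at 3 of 4 times for CHIL. At time 3, CHIL was then at 2345 CPM of the library total in af, 2256 in CHI4 and 2436 in CHI9. Under those totals the median log2 difference of all tested genes between af and the lines moved from 0.07 to 0.50. The fitted difference of CHIL became -0.25 without the block and -0.30 with it (edgeR adjusted p = 0.503 and 0.0398), and that of CHI1 became -1.13 and -1.08 (edgeR adjusted p = 0.000760 and 8.03e-05).

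**Figure D2:**
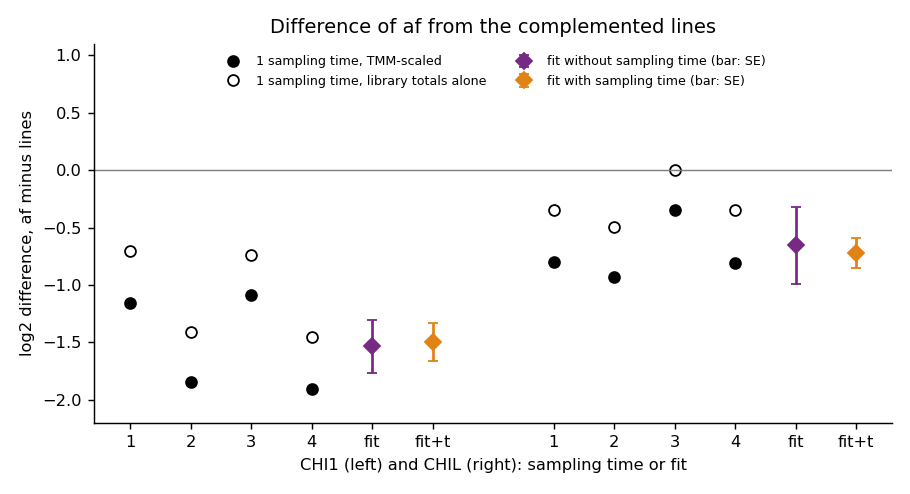
Log2 difference of af from the mean log2 of the lines for CHI1 (left) and CHIL (right). Filled points are single sampling times on the TMM scale, open points the same with library totals alone, and diamonds with SE bars the fits without ("fit") and with ("fit+t") sampling time. The CHI1 fits lie at -1.53 and -1.50 and the CHIL fits at -0.65 and -0.72, and the SE of CHIL drops from 0.334 to 0.132 once sampling time is in the fit.

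The ratio of CHI1 to CHIL counts within a library does not depend on scaling. In af, 32.1 CHI1 counts were found per 100 CHIL counts at time 1, 28.0 at time 2, 15.9 at time 3 and 21.3 at time 4. In CHI4 there were 27.7, 61.4, 27.4 and 50.9, and in CHI9 61.6, 45.1, 25.7 and 41.0. The genotypes overlapped: at time 1 CHI4 was below af, and at time 3, when CHIL peaked, both lines were below the highest af value. These are ratios of counts, which depend on transcript length, so they give no relative abundance of the transcripts.

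The log2 ratio averaged -2.09 over the 4 af libraries, with an SD of 0.448. Over the 8 line libraries it averaged -1.31, with an SD of 0.522, which puts af at -0.78 relative to them. Over 495 arrangements the exact permutation p (two-sided) was 0.0343, with 0.00202 the smallest it allows. The difference of af from the mean of the lines was negative at 4 of 4 times, at -0.36, -0.91, -0.74 and -1.10. At time 1 af (-1.64) was nevertheless above CHI4 (-1.85), with CHI9 at -0.70. With arrangements only within sampling times the exact permutation p was 0.0247, with 0.0123 the smallest that 81 arrangements allow. Without restriction to sampling times, the call was lost when any of 7 libraries was left out, while the difference in all 12 such runs stayed between -0.93 and -0.59. The exact permutation p was 0.109 without af replicate 3, 0.0909 without af replicate 4, 0.0636 without CHI4 replicate 2 or without CHI9 replicate 1, 0.0606 without CHI4 replicate 4, 0.0576 without CHI9 replicate 4 and 0.0515 without CHI9 replicate 2. The test within sampling times was run with all 12 libraries.

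**Figure D3:**
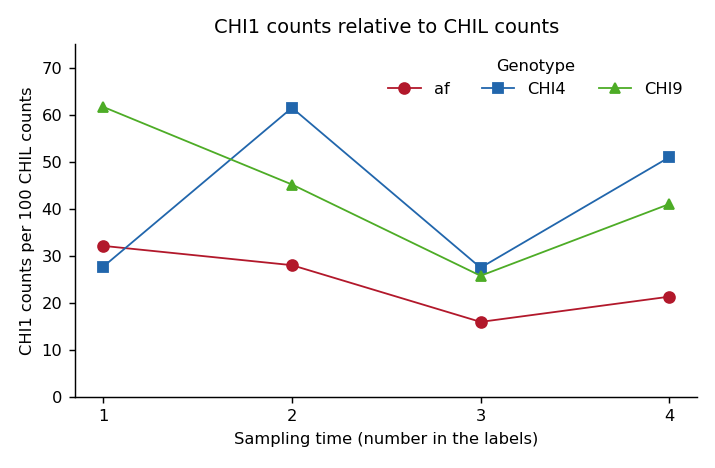
CHI1 counts per 100 CHIL counts in each library by sampling time, with a line for each genotype. The af libraries run from 15.9 to 32.1 and the line libraries from 25.7 to 61.6, and the genotypes lie closest at sampling time 3, while at time 1 only af and CHI4 lie close.

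Solyc05g010310, which directly precedes CHI1 in the tables' locus order, was all but unread. It had 8 counts in af replicate 2, split as 4 and 4 over the lanes, and 0 in the other 11 libraries. The 8 counts equal 0.163 CPM of that library, with an exact 95% Poisson interval of 0.0704 to 0.321 that covers counting error only. A count of 0 allows up to 0.0423 CPM in the deepest library and 0.334 in the shallowest (3 counts). The locus did not pass the filter on low counts, so no fold or test is given, and of the 3 loci 2 were tested. In the RefSeq gene table of another assembly (SLM_r2.1), the gene before CHI1 on chromosome 5 carries the symbol CHI2. No table used here pairs that gene with Solyc05g010310. Reads that fitted several places equally were not assigned to a gene, so reads of near-identical copies could be missing from either count.

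The pathway around these genes was described by 12 loci from chalcone synthase to the anthocyanin enzymes, of which 11 were tested. Their names rest on general knowledge of the locus numbers. Against the lines, 1 rose and 3 fell in af, with a median log2 difference of -0.03 against 0.07 over all tested genes (26.5% of tested genes were called, 12.9% higher and 13.6% lower). The enzymes just before and after CHI1 had smaller fitted differences. CHS1 had a log2 difference of -0.17 (SE 0.181), CHS2 -0.13 (SE 0.172) and flavanone 3-hydroxylase (F3H), which acts on the product of CHI1, 0.12 (SE 0.170). None of these passed, with edgeR adjusted p-values of 0.525, 0.635 and 0.661. MYB12, a regulator of flavonol genes, rose by 1.01 in af (SE 0.184, edgeR adjusted p = 0.000479), from 84.6 CPM in the lines to 169 CPM. The rhamnosyltransferase RT and the glucosyltransferase 3GT, which add sugars, fell by 0.74 and 0.65. The third that fell was the scarce hydroxylase F3'5'H, at 0.624 CPM in af and 3.89 CPM in the lines. With sampling time as a block 3 rose and 3 fell, where 2889 of all 18326 tested genes rose and 2919 fell. Flavonoid 3'-hydroxylase (F3'H) was among the 3 that rose, by 0.38 (SE 0.121, edgeR adjusted p = 0.0220). Without the block it was at 0.32 (edgeR adjusted p = 0.331). With library totals alone 5 rose and 1 fell, where 6616 of all tested genes rose and 1086 fell. The split changed with the fit and the scaling.

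Sampling time gave another picture of the same list. From the earlier to the later pair of times 4 of the 11 tested loci rose and 0 fell, with a median log2 difference of 0.30 against 0.0019 over all tested genes, of which 0.971% were called. The fitted values of the list ran from -1.24 to 0.66, and those of F3'5'H (-1.24), ANS (-0.36), MYB12 (-0.24) and RT (-0.026) were negative without passing. Flavonoid 3'-hydroxylase (F3'H) rose by 0.66 (SE 0.117), flavonol synthase (FLS) by 0.62 (SE 0.0995), CHS1 by 0.49 (SE 0.101) and F3H by 0.42 (SE 0.101), with edgeR adjusted p-values of 0.0124, 0.00690, 0.0240 and 0.0473. All 4 belong to the flavonol branch or the steps before it. CHIL, at 0.82, had the largest fitted rise among these loci and the pair described here. The number of list loci called was 1 to 4 when single libraries were left out, so the count is not firm. Here too the SE and p do not measure the spread between collections.

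**Figure D4:**
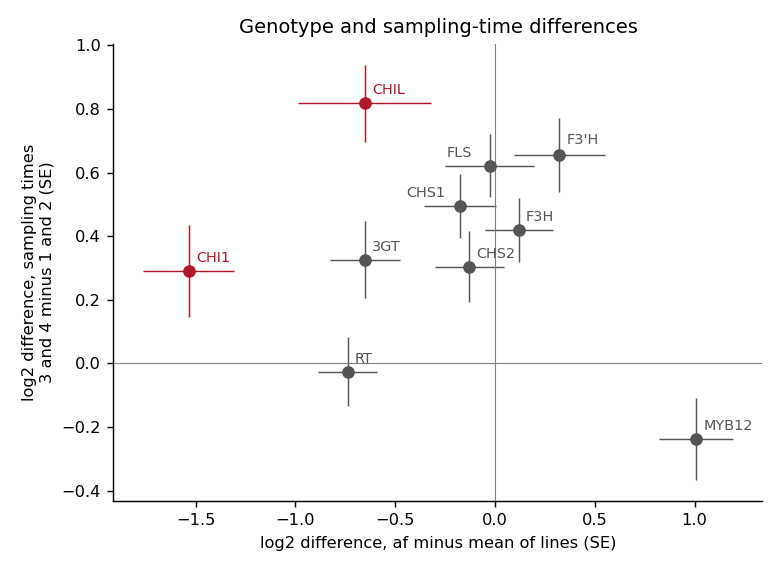
Fitted log2 value of af minus the mean of both lines (horizontal) and between sampling times 3 and 4 and sampling times 1 and 2 (vertical), each with its SE, for CHI1 and CHIL (red) and the loci of the flavonoid list whose mean reached 5 CPM (grey). CHI1 lies at -1.53 and 0.29, CHIL at -0.65 and 0.82, and CHS1, CHS2, F3H, F3'H and FLS lie within 0.33 of 0 on the horizontal axis and above 0 on the vertical. The horizontal values are from the fit without sampling time, and with it as a block F3'H was at 0.38. The vertical SE does not measure the spread between collections.

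Likeness of profiles was measured by the root mean square difference of log2 CPM over the 12 libraries, each gene centred on its own mean, among the 11783 genes whose mean reached 5 CPM. The nearest to CHI1 were Solyc00g011890, at 0.267, and Solyc10g086180, at 0.289, against a median of 0.867. From general knowledge, Solyc10g086180 is a phenylalanine ammonia-lyase locus, the enzyme that opens the phenylpropanoid pathway. It averaged 153 CPM in af and 396 CPM in the lines, and Solyc00g011890 averaged 58.2 and 149 CPM. Since likeness to CHI1 chose both genes, their lower level in af is part of the choice and was not read as a result. By likeness to CHI1, 3GT ranked 241, RT ranked 444 and CHIL ranked 962, at 0.586. The other list loci above 5 CPM ranked from 2259 (CHS1) to 10839 (MYB12). The nearest to CHIL were Solyc12g098490, at 0.205, and Solyc10g080870, at 0.283, neither named in the sources used here, against a median of 0.730. By likeness to CHIL, FLS ranked 43, at 0.363, CHS1 ranked 130, at 0.406, 3GT ranked 222 and RT ranked 534. F3H ranked 749, CHS2 755, CHI1 2154, F3'H 2967 and MYB12 10936. These distances share library depth and scaling and are a description only.

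Fitted from lane 1 alone and lane 2 alone, af differed from the lines by -1.54 and -1.52 for CHI1 and by -0.653 and -0.647 for CHIL (log2). Lane 2 held 0.453 counts of CHI1 and 0.453 of CHIL for each count of lane 1 in af replicate 4, against 0.450 for all genes of that library. In CHI9 replicate 2, the shallowest library, CHI1 had 3118 and 2823 counts in the lanes, a ratio of 0.905 against 0.983 for the library. In af replicate 2 it had 7817 and 8084 counts, a ratio of 1.03 against 0.985.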

How the data were processed

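The deposited files hold whole-number counts per gene model, 1 file per lane, checked to carry no normalization. Per the submitters' processing notes, the authors' tools included HTSeq, SAMtools, TopHat2 and Trimmomatic. Their versions, options, strand setting, genome build and gene models are not given in the sources used, so overlapping and antisense genes cannot be resolved. The 5 summary entries were left out: these were 8.48% to 12.3% of a lane for reads outside genes, 3.54% to 6.84% for ambiguous ones and 4.60% to 7.61% for those aligned to more than 1 place. Of counts from 1 to 10 in a lane 61.4% to 71.8% were even, so both mates of a pair may have been counted, which is not recorded, and floors and counting intervals would then be too narrow.

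Lanes were summed. Genes kept by filterByExpr (18326) were fitted in R 4.3.3 with edgeR 4.0.16, TMM scaling (factors 1.10 to 1.28 in af, 0.853 to 0.988 in the lines) and the robust quasi-likelihood test with 3 genotypes in 1 fit. Adjusted p-values are Benjamini-Hochberg over all tested genes, threshold 0.05. Log CPM used a prior count of 2. Sampling-time tests used genotype plus time. DESeq2 1.42.0 was an alternative. The code was tested on simulated data.

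The labels' sampling time pairs the libraries. Deviations from genotype means correlated at -0.0394 to 0.184 within a time (7 of 12 pairs over 0.1, median 0.109), while pairs from different times had a median of -0.0324. Deviations of a genotype cancel over its libraries, so positive values within a time force negative ones between times. The second median is therefore no separate evidence of pairing. The replicate block is that time.

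Members, lists and tests were chosen with earlier results of these data known. Named are the members, the flavonoid list and the 2 genes nearest to CHI1 and to CHIL. Of 41476 RefSeq genes 0 matched by identifier, and 1 member (CHI1) by symbol. A planned ratio of Solyc05g010310 to CHI1 was not computed, since 11 of 12 libraries held 0.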

Additional observations from a re-analysis of the deposited data

Results flagged for a closer look

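Solyc05g010310 had 8 counts in af replicate 2 and 0 in the other 11 libraries, of af and the lines alike, where a count of 0 allows 3. It lies outside every test, since it did not pass the filter on low counts. The 9 groups of 4 libraries (CHI1, CHIL and their ratio in each genotype) held no library past the limit for an outlying value (0.829 of the group's range), with CHIL in af replicate 3 the widest gap, at 0.685.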

How the results depend on the processing

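Each result was recomputed under up to 9 other settings and with each library left out. CHI1 kept its direction and its call against the lines in all 21 runs, at -1.69 to -1.13 on the log2 scale (edgeR or DESeq2 adjusted p at most 0.000760), and so it did against CHI4 (-1.90 to -1.24) and CHI9 (-1.55 to -1.02). With the replicate block, CHIL passed against the lines (-0.72), CHI4 (-0.86) and CHI9 (-0.59), where 36 genes differed between the lines. The block changed no other member's call. In that fit, settings chosen after seeing the data left CHIL at -0.85 to -0.64 without single libraries, and its call stood. Without the block, leaving out single libraries gave CHIL -1.08 to -0.45 against the lines, -1.17 to -0.54 against CHI4 and -0.996 to -0.27 against CHI9, with the call gained without af replicate 3 each time. The runs without af replicate 3 held no af library at sampling time 3. Between the lines CHIL ran from -0.48 to 0.058, reversed without CHI9 replicate 1 (0.058). The ratio ran from -0.93 to -0.59.

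For the change of the af difference with time, CHI1 ran from -0.35 to 0.39 and CHIL from -0.18 to 0.75 without single libraries. CHI1 turned negative without af replicate 1 (-0.017), CHI4 replicate 2 (-0.35), CHI9 replicate 2 (-0.0015), af replicate 3 (-0.17) and CHI4 replicate 3 (-0.0036), and CHIL without af replicate 3 (-0.18). Calls in this test were 1 with DESeq2 and 17 without the low-count filter. Among the sampling times the adjusted p of CHI1 was 0.0291 with DESeq2 and 0.000746 without that filter; the cause was not tested. Genes called there were 1137 with DESeq2 and 1402 without the filter, and 156 to 723 without single libraries. For times 3 and 4 against 1 and 2 they were 660 with DESeq2, 284 with library totals alone, 759 without the filter and 26 to 736 without single libraries, and the flavonoid list held 1 to 4 calls. Genes called between the lines were 92 with DESeq2 and 9 to 16 without single libraries. Library totals alone gave 7702 calls against the lines (6616 higher and 1086 lower in af, against 2358 and 2500 with TMM) and 6566 against CHI4.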

Other observations

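Of the 5 loci on each side of Solyc05g010310 and CHI1 by locus number, 7 of 10 were tested, and against the lines 0 rose and 2 fell in af, where 13.6% of tested genes fell. The locus 5 places before fell by 0.69 on the log2 scale (SE 0.147, edgeR adjusted p = 0.00151), from 93.8 ± 14.9 CPM (SD, n = 8) in the lines to 58.0 ± 8.61 CPM (SD, n = 4) in af. The locus 2 places before fell by 0.72 (SE 0.220, edgeR adjusted p = 0.0203). The nearest tested locus after CHI1 was scarce, at 0.535 CPM in af and 0.767 CPM in the lines, and the nearest before it other than Solyc05g010310 had a log2 difference of 0.14 (SE 0.165). CHI1 had the largest difference, -1.53, among the tested loci of this stretch, whose others ran from -0.72 to 0.69. Counts of CHI1 in the lines can include the introduced copy, so this rank is a description only.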
